A study of Mus musculus with 8 samples.

Results

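Expression of 10 genes of the Nrf2 antioxidant response, Nfe2l2, Keap1, Slc7a11, Gclc, Gclm, Gsta4, Txnrd1, Srxn1, Nqo1 and Hmox1, was read out of RNA sequencing counts from mouse skin. The 10 genes were chosen by symbol from 34745 in the table, and all 10 passed the filter on low counts. Skin lesions came from 8 mice aged 16 weeks, in 2 groups of 4. Mice labelled NcstnΔKC carried floxed Ncstn alleles (Ncstn flx/flx) with Krt14 CreER+/-, a tamoxifen-activated recombinase made in keratinocytes. From 8 weeks of age they were given tamoxifen by gavage on 5 days (20 mg/kg daily), then again at intervals of 10 days. The normal mice received corn oil. The protocol gives them the same floxed and Cre genotype, whereas their genotype label reads wildtype, so tamoxifen, recombination and, by that label, genotype cannot be told apart as sources of a difference.

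Nrf2, the product of Nfe2l2, is a transcription factor that is bound in the cytoplasm by Keap1 and handed to a ubiquitin ligase for degradation. Electrophiles and oxidants modify cysteines of Keap1, after which Nrf2 accumulates, pairs with small Maf proteins and binds antioxidant response elements in the DNA of its target genes. In the epidermis this programme is known for supplying glutathione and thioredoxin reducing power to keratinocytes that meet ultraviolet light, chemicals and wounds.

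Ncstn encodes nicastrin, a γ-secretase subunit, and the libraries labelled NcstnΔKC could not be told from normal ones by its level. Its CPM (the read count scaled to library size) ranged from 58.4 to 61.9 in normal skin and from 50.2 to 66.8 in theirs, and the log2 fold change was -0.07 ± 0.12 (SE; adjusted p = 0.663). These are counts over the whole gene, which do not separate the floxed exons. The name NcstnΔKC below is therefore the label of a library. Total counts ran from 5835422 to 8663753 in normal and from 11881506 to 12893174 in NcstnΔKC libraries. All mice were labelled male, but replicates 3 and 4 of both groups held 22304 to 37109 counts of Xist, the transcript of an inactive X chromosome, against 4 to 9 in replicates 1 and 2. Krt5, which marks basal keratinocytes, ranged from 2576 to 3071 CPM in normal and from 3899 to 6298 CPM in NcstnΔKC libraries. Of the 13 basal keratinocyte genes listed, 11 were higher in NcstnΔKC libraries. Trp63 did not pass (log2 fold change 0.17), and Dst was lower, at 3125 CPM in normal and 1382 CPM in NcstnΔKC libraries on average. No label says how the mice were housed or bred, and p-values measure the spread between these 8 animals.

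Antioxidant response elements were looked for in the promoters of the genes, because these elements are where Nrf2 binds. RefSeq promoter sequences (GRCm38.p6, 250 bases before to 50 after a gene's start) were given for 7 of the 10 genes, with 3 starts for Txnrd1, and not for Hmox1, Gclc and Gsta4. The core letters TGACNNNGC, searched on both strands, occurred at 4 of those 7 genes, and at 14% of 27025 gene symbols in the same table. The AP-1 letters TGAGTCA, bound by Fos and Jun proteins, occurred at 5.95% of symbols and, among the 7, at Srxn1 alone. Each match upstream of a start is shown here, 5′ to 3′ on the strand of the gene, with the matched letters in capitals.
Gclm, chr3:122245407-122245447, core on the opposite strand: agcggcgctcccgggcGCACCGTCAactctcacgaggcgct
Txnrd1, chr10:82859098-82859138, core on the opposite strand: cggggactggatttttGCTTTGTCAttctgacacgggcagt
Nfe2l2, chr2:75704879-75704913, core on the same strand: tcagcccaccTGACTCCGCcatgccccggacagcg
Srxn1, chr2:152105406-152105444, AP-1 letters: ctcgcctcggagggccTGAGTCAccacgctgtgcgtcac
Srxn1, chr2:152105463-152105501, AP-1 letters: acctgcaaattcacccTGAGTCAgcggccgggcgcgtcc

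The core begins 134 bases before the start of Gclm, 92 before a start of Txnrd1 and 240 before that of Nfe2l2. At Srxn1 the AP-1 letters begin 102 and 45 bases before the start, and its match to the core as searched lies after the start. The AP-1 letters at 45 bases are followed by gc, so they match the core but for a G in place of its C. A core with that G was not searched for at any gene. No core was found in these windows at Keap1, Nqo1 or Slc7a11. A match is a description of letters, and the windows leave out more distant DNA.

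The genes did not move as a block. Gsta4, Slc7a11, Gclm and Srxn1 were higher in NcstnΔKC skin, whereas Nfe2l2, Keap1, Gclc, Txnrd1, Nqo1 and Hmox1 did not pass the threshold (edgeR's quasi-likelihood test over 15684 genes, Benjamini-Hochberg adjusted p under 0.05). Thus 4 of 10 were higher and 0 lower, where 21.4% of all tested genes were higher and 22.7% lower. The median log2 fold change of the 10 was 0.49, beside -0.02 over all tested genes. Of the 10 genes 9 had the higher mean in the NcstnΔKC group, but the groups did not overlap in CPM for Gsta4 alone, 1 of 10 where 20.9% of all tested genes lay that way. No gene of the 10 lay wholly lower, where 20.7% did. On this scale (TMM-scaled CPM) the share of genes with groups that do not overlap was not above the background, and the values on the FPKM scale are given below.

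**Figure D1:**
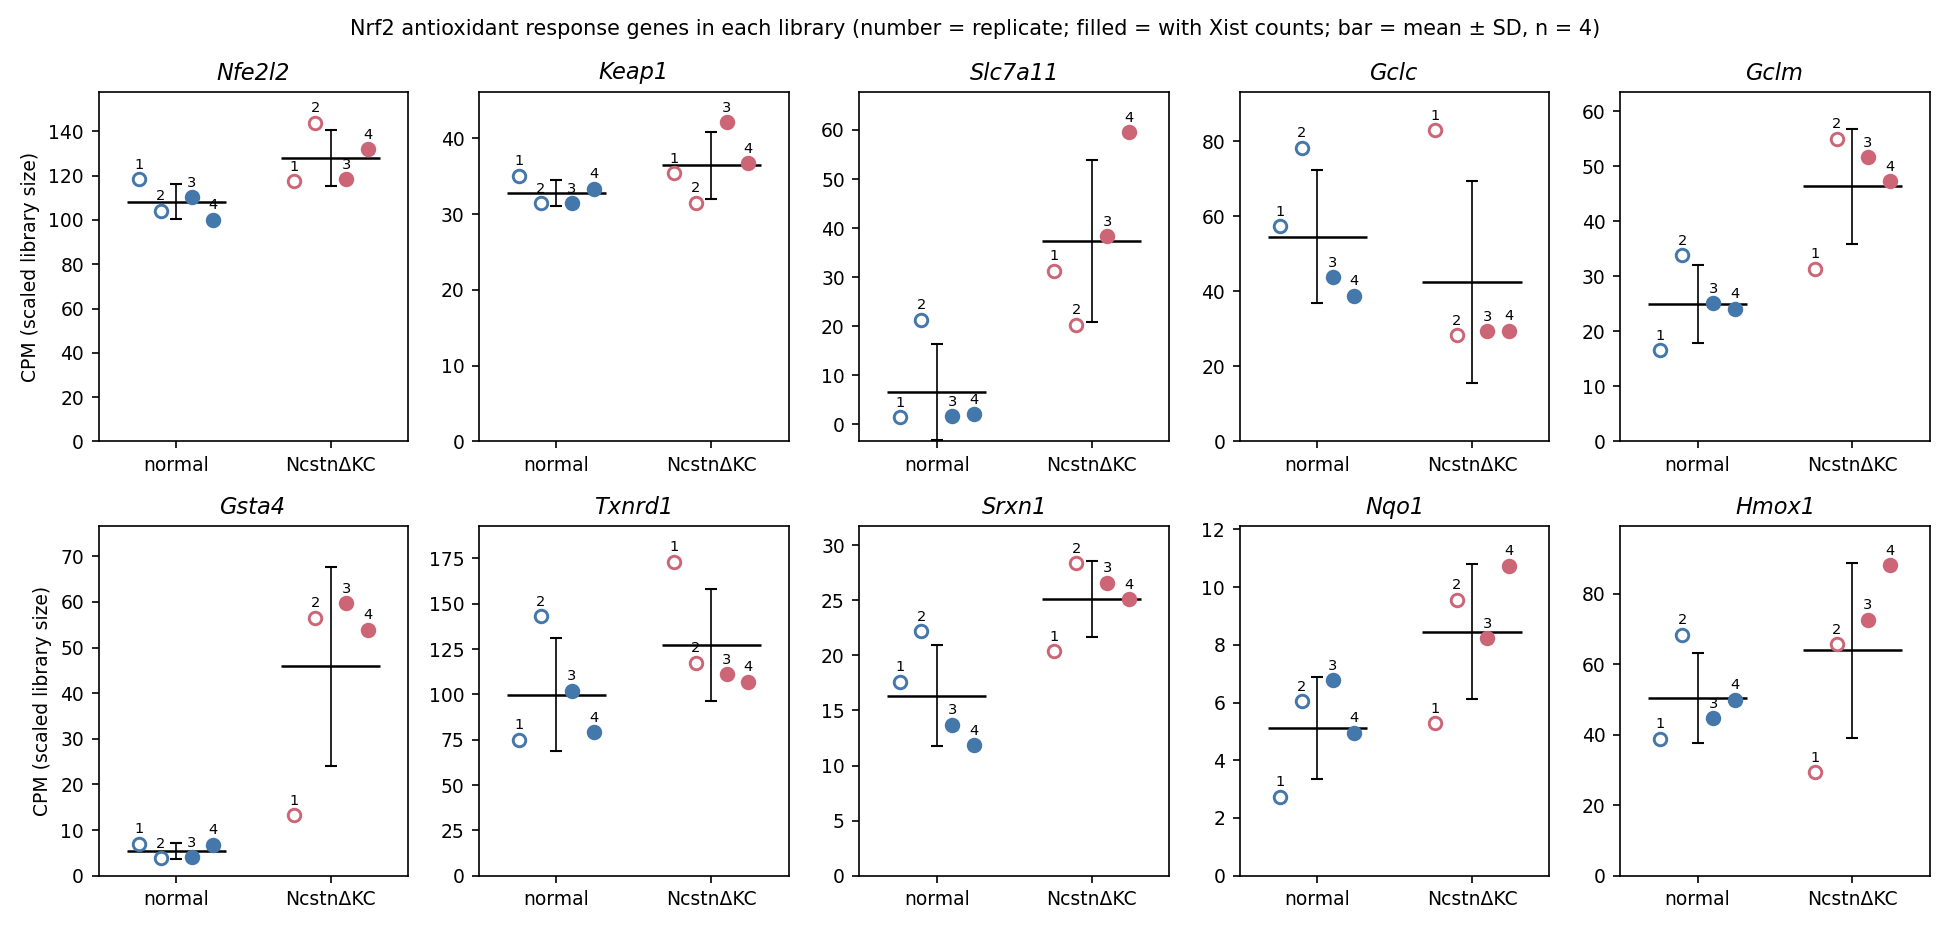
CPM of each gene (vertical axis, from 0 except where the SD bar of Slc7a11 reaches below it) in the 4 normal (blue) and 4 NcstnΔKC (red) libraries, numbered by replicate, with filled points for libraries that hold Xist counts and black bars for the mean ± SD. Only Gsta4 has groups that do not overlap, and NcstnΔKC replicate 1 lies far from its group in Gsta4, Gclc and Txnrd1.

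**Figure D2:**
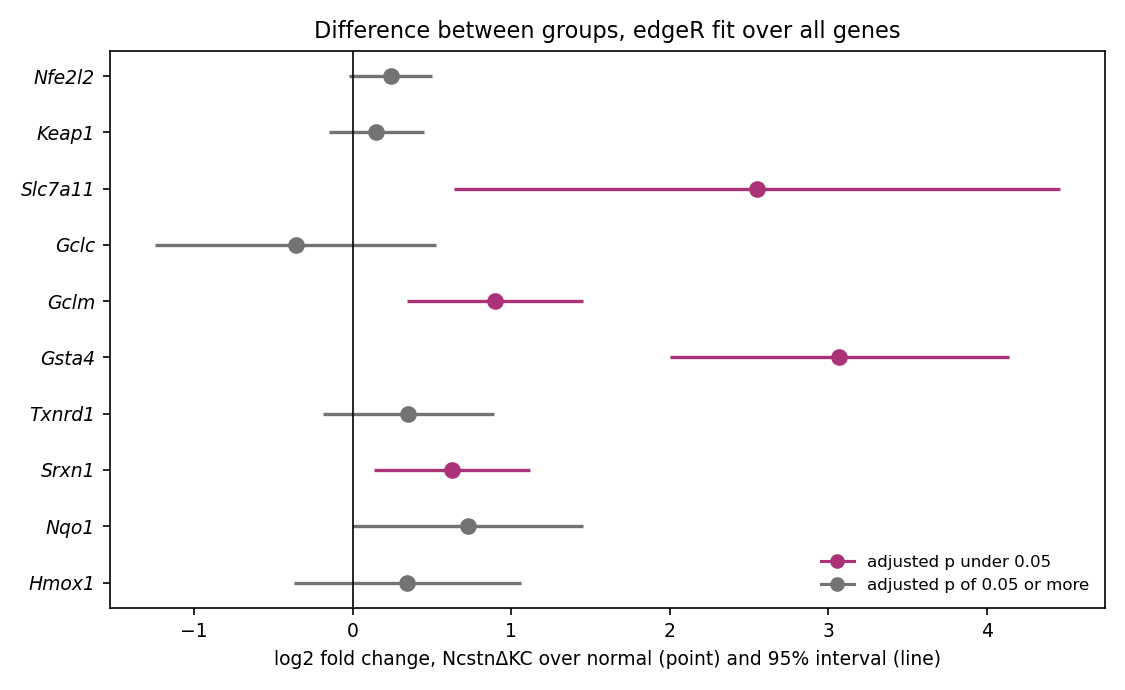
Log2 fold change of NcstnΔKC over normal (horizontal axis) for each gene, as a point with its 95% interval. The intervals of Gsta4, Slc7a11, Gclm and Srxn1 lie above 0 and those of the other 6 genes include it.

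The factor and its inhibitor came first. Nfe2l2 (mm10, ENSMUSG00000015839, chromosome 2, 75675513 to 75704641) had 118, 104, 110.4 and 100.2 CPM in the normal libraries and 117, 144, 118 and 132 CPM in the NcstnΔKC libraries, in the order of replicates 1 to 4 as for all genes below. The groups overlapped through NcstnΔKC replicate 1 and normal replicate 1. The difference was 0.24 ± 0.12 on the log2 scale (adjusted p = 0.119; 95% interval -0.02 to 0.50). Keap1 (ENSMUSG00000003308, chromosome 9, 21229730 to 21239332), the adaptor that marks Nrf2 for degradation, had 35.1, 31.4, 31.5 and 33.4 CPM in normal and 35.4, 31.5, 42.2 and 36.7 CPM in NcstnΔKC skin. Its groups overlapped, with a log2 fold change of 0.15 ± 0.13 (adjusted p = 0.38). An antisense transcript, Gm16754, overlaps Keap1, and 9.02% of the 31-base stretches of Keap1 transcripts occur in another gene, most often in Gm16754. Both calls depended on the scale. With total counts alone Nfe2l2 (0.56, edgeR adjusted p = 0.013) and Keap1 (0.46, adjusted p = 0.0386) were higher. Relative to basal keratinocyte genes they were lower (-0.46, edgeR adjusted p = 0.0335, and -0.54, adjusted p = 0.0326). The median over all tested genes was 0.29 with total counts alone and -0.71 relative to basal keratinocyte genes. On the latter scale 49.3% of all tested genes were lower, so both falls are to be read beside that shift.

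Import of cystine, the limiting precursor of glutathione, was represented by Slc7a11, the transporter chain called xCT. Slc7a11 (ENSMUSG00000027737, chromosome 3, 49892526 to 50443614) had 1.52, 21.4, 1.69 and 2.08 CPM in normal and 31.3, 20.4, 38.4 and 59.6 CPM in NcstnΔKC skin. Normal replicate 2 thus stood above the lowest NcstnΔKC library, while the other 3 normal libraries held 10 to 16 counts each. Normal skin averaged 6.67 ± 9.80 CPM and NcstnΔKC skin 37.4 ± 16.5 CPM (SD, n = 4 each). On the log2 scale this was 2.55 ± 0.84 higher (SE; edgeR adjusted p = 0.0359). Without normal replicate 2 the log2 fold change was 4.45, and the call ended without any of normal replicates 1, 3 and 4 (2.3, 2.3 and 2.31, adjusted p = 0.0635, 0.0718 and 0.077) or NcstnΔKC replicates 3 and 4 (2.54 and 2.23, adjusted p = 0.0671 and 0.0809). It also ended without the filter on low counts (2.70, adjusted p = 0.0715) and relative to basal keratinocyte genes (1.69, adjusted p = 0.126), with a range of adjusted p over 27 alternatives of 2.35e-04 to 0.52. Normal replicate 2 also held 3.19% of its counts in hair follicle genes, against 0.0341% to 0.0782% in the other normal libraries, and 0.0133% in melanocyte genes, against 0.00117% to 0.00323%. The part of these cells in the Slc7a11 value of that library was not tested. In bulk tissue, fewer cells of a type and less RNA per cell cannot be told apart. Of the 31-base stretches of Slc7a11 transcripts 4.27% occur in other genes, and 5 annotated genes lie inside its span.

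Glutamate-cysteine ligase, which makes the first bond of glutathione, has a catalytic subunit, Gclc, and a modifier subunit, Gclm. Gclm (ENSMUSG00000028124, chromosome 3, 122245557 to 122270732) had 16.6, 33.9, 25.1 and 24.1 CPM in normal and 31.4, 54.9, 51.6 and 47.3 CPM in NcstnΔKC skin. The NcstnΔKC replicates 2 to 4 lay above all normal ones, and NcstnΔKC replicate 1 lay below normal replicate 2. Gclm was higher by 0.90 ± 0.25 on the log2 scale, 1.86-fold (adjusted p = 0.0167), and by 0.14 (adjusted p = 0.712, over 27 alternatives 0.00153 to 0.712) relative to basal keratinocyte genes. Gm17494, on the opposite strand, overlaps Gclm, as does the pseudogene Gm6061 on the same strand. The counting was not stated to use strand. Of the 31-base stretches of Gclm transcripts 6.82% occur in other genes. Gclc (ENSMUSG00000032350, chromosome 9, 77754535 to 77794485) had 57.4, 78.2, 43.8 and 38.8 CPM in normal and 82.8, 28.3, 29.4 and 29.5 CPM in NcstnΔKC skin. NcstnΔKC replicate 1 was the highest of all 8 libraries and the other 3 were the lowest. The log2 fold change of Gclc was -0.36 ± 0.39 (adjusted p = 0.483). Without NcstnΔKC replicate 1 it was -0.90 and passed (adjusted p = 0.0138, over 27 alternatives 0.011 to 0.877).

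Gsta4 (ENSMUSG00000032348, chromosome 9, 78191966 to 78209348), a glutathione transferase that conjugates 4-hydroxynonenal from oxidised lipid, showed the largest difference of the 10. It had 6.98, 3.83, 4.09 and 6.77 CPM in normal and 13.3, 56.6, 59.7 and 53.9 CPM in NcstnΔKC skin. All NcstnΔKC libraries lay above all normal ones, with replicate 1 much nearer to normal than the other 3. Normal skin averaged 5.42 ± 1.69 CPM and NcstnΔKC skin 45.9 ± 21.9 CPM (SD, n = 4 each). Gsta4 was thus 8.39-fold higher, or 3.07 ± 0.47 on the log2 scale (SE; edgeR adjusted p = 0.00135). The log2 fold change stayed between 2.36 and 3.41 over 27 alternatives, and it missed the threshold only with the 4 libraries without Xist (2.68, adjusted p = 0.139, over the alternatives 3.08e-10 to 0.139). None of its 31-base transcript stretches occurs in another annotated gene.

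Of the thioredoxin arm, Txnrd1, the cytosolic selenoenzyme that reduces thioredoxin with NADPH, did not pass. Txnrd1 (ENSMUSG00000020250, chromosome 10, 82859206 to 82897724) had 75.0, 143, 102 and 79.1 CPM in normal and 173, 117, 111 and 107 CPM in NcstnΔKC skin. The groups overlapped through normal replicate 2, and NcstnΔKC replicate 1 was the highest. The log2 fold change was 0.35 ± 0.24 (adjusted p = 0.26). It was 0.63 without normal replicate 2 (adjusted p = 0.0369) and 0.17 without NcstnΔKC replicate 1, with adjusted p over 27 alternatives of 0.0184 to 0.542. The protein-coding gene Eid3 lies inside the span of Txnrd1 on the same strand. None of the 31-base stretches of Txnrd1 transcripts occurs in another annotated gene. Srxn1 (ENSMUSG00000032802, chromosome 2, 152105516 to 152111376), sulfiredoxin, restores peroxiredoxins that have been overoxidised. It had 17.6, 22.2, 13.7 and 11.9 CPM in normal and 20.4, 28.4, 26.6 and 25.1 CPM in NcstnΔKC skin. The groups overlapped only through normal replicate 2 and NcstnΔKC replicate 1. Srxn1 was higher by 0.63 ± 0.22 (1.54-fold, adjusted p = 0.0424). That call was near the threshold and ended without any of normal replicates 3 and 4 or NcstnΔKC replicates 2, 3 and 4 (0.56 to 0.64, adjusted p = 0.0746 to 0.0954), with upper-quartile scaling (0.57, adjusted p = 0.0636) and with the replicate number as a block (0.65, adjusted p = 0.0558), over 27 alternatives 0.00281 to 0.756.

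Nqo1, a flavoenzyme that reduces quinones, was thinly counted, at 18 to 48 counts in normal and 63 to 160 in NcstnΔKC libraries. Nqo1 (ENSMUSG00000003849, chromosome 8, 107388225 to 107403206) had 2.73, 6.05, 6.78 and 4.95 CPM in normal and 5.29, 9.57, 8.23 and 10.7 CPM in NcstnΔKC skin. The groups overlapped through NcstnΔKC replicate 1, and the log2 fold change of 0.73 ± 0.32 did not pass (adjusted p = 0.0966). Without that library it was 0.90 and passed (adjusted p = 0.032, over 27 alternatives 0.0193 to 0.961). Hmox1 (ENSMUSG00000005413, chromosome 8, 75093591 to 75100596), haem oxygenase 1, opens the haem ring and is also made by macrophages that take up red cells. It had 38.9, 68.3, 44.6 and 49.9 CPM in normal and 29.3, 65.6, 72.6 and 88.1 CPM in NcstnΔKC skin. NcstnΔKC replicate 1 was the lowest of all 8 libraries. The log2 fold change was 0.34 ± 0.32 (adjusted p = 0.404), and without NcstnΔKC replicate 1 it was 0.59 and passed (adjusted p = 0.0386, over 27 alternatives 0.00562 to 0.851).

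NcstnΔKC replicate 1 divided the 10 genes. Among the 4 NcstnΔKC libraries it was lowest in 6 genes (Nfe2l2, Nqo1, Hmox1, Gclm, Srxn1 and Gsta4) and highest in 2 (Gclc and Txnrd1). It also differed in cell markers. Macrophage genes took 0.0611% of its counts and 0.344% to 0.457% in the other 3, beside 0.0533% to 0.094% in normal skin. Of the 10 macrophage genes 9 were tested, of which 6 rose and 0 fell, beside 21.4% and 22.7% of all tested genes. Marco, which was not tested, averaged 2.13 CPM in normal skin and was at 0 in every NcstnΔKC library. Neutrophil genes took 0.00341% of the counts of NcstnΔKC replicate 1 against 0.0105% to 0.0253% in the other 3. In normal skin, where Ly6g was at 0, they took 0.000444% to 0.00082%. Of the 10 neutrophil genes 6 were tested and 6 rose, beside 21.4% of all tested genes. Of these, Cxcr2, Retnlg, Mmp8, Ngp and Ltf held 0 to 5 counts in each normal library. They could pass the filter on low counts only through the NcstnΔKC group, so their rise was set in part by that filter. Among the untested genes, Mpo and Elane had the lower mean CPM in NcstnΔKC libraries and Ly6g and Camp the higher, all at low counts. Basal keratinocyte genes took 1.37% in replicate 1 and 1.90% to 2.07% in the other 3, against 0.707% to 1.15% in normal skin, with 11 of 13 higher and 1 lower. Erythroid genes took 0.0505% in replicate 1 against 0.0042% to 0.0163%, with 0 of 5 tested genes past the threshold. The part of these cells in the values of Hmox1 and the other genes was not tested. None of the 12 marker lists passed after adjustment (exact permutation test on shares, lowest p = 0.0286, the smallest that 70 arrangements allow, adjusted p = 0.0857). Basal keratinocyte, neutrophil, hair follicle and sebocyte genes were at that smallest p, with groups that did not overlap. A list cannot pass by itself at that p over 12 lists, so the test cannot show that shares were alike. Without NcstnΔKC replicate 1, 6 of the 10 Nrf2 response genes were higher and 1 lower, where 24.4% and 26% of all tested genes were. Without normal replicate 2 as well, 7 were higher and 1 lower, beside 24.7% and 25.7%. Normal replicate 2 was the highest normal library in 6 of the 10 genes. Where NcstnΔKC replicate 1 is lowest or normal replicate 2 highest, leaving that library out raises the log2 fold change by itself. Where NcstnΔKC replicate 1 is highest the value falls instead, from 0.35 to 0.17 in Txnrd1 and from -0.36 to -0.90 in Gclc. The counts of genes called without these libraries are therefore not a like comparison with the shares of all genes.

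**Figure D3:**
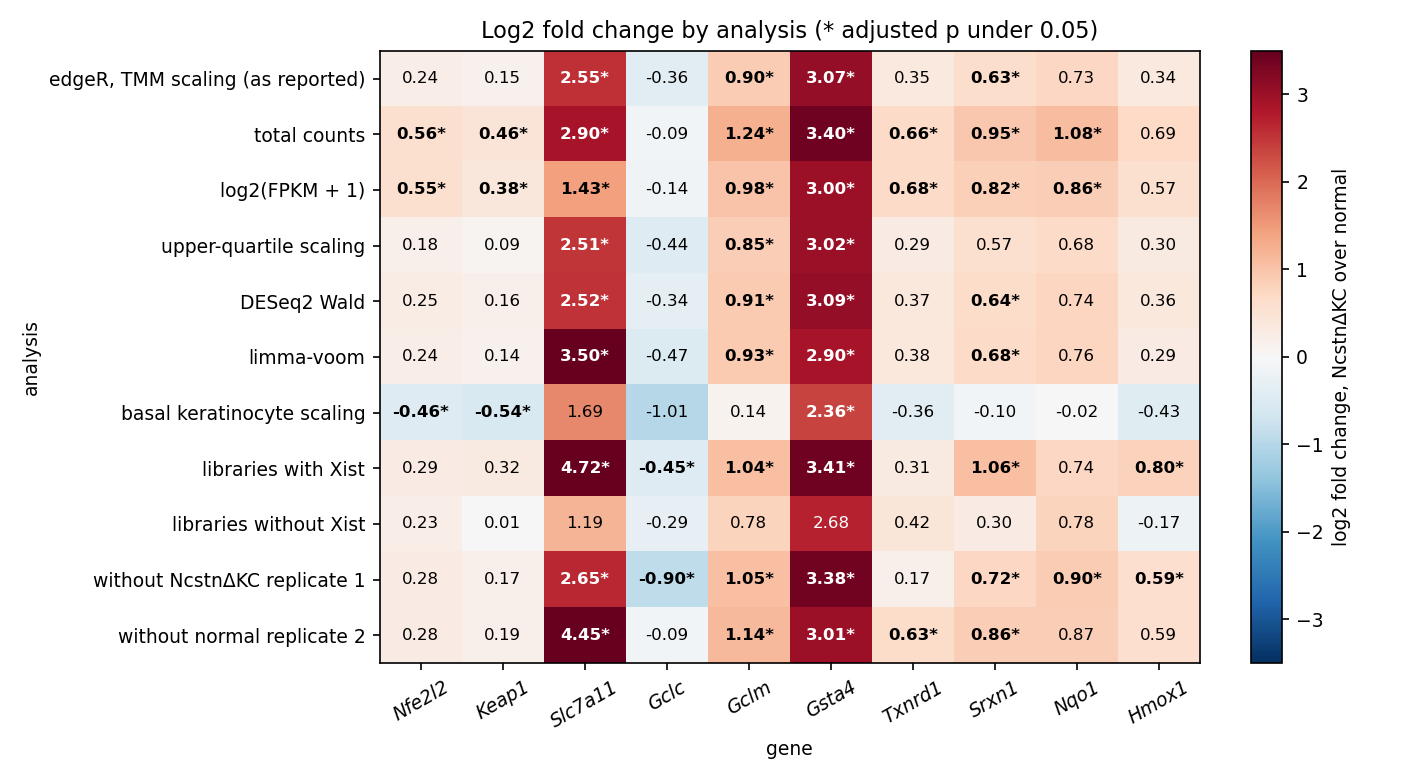
Log2 fold change of NcstnΔKC over normal for each gene (columns) under the reported fit and 10 other analyses (rows), with colour and printed value for the size and an asterisk for an adjusted p under 0.05. Gsta4, Slc7a11 and Gclm stay positive and Gclc stays negative in every row. Nfe2l2, Keap1, Txnrd1, Srxn1, Nqo1 and Hmox1 turn negative when scaled by basal keratinocyte genes.

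The scale on which libraries were compared moved most of the 10 genes. With total counts alone 8 were higher and 0 lower, beside 33.9% and 14.2% of all tested genes, and the median of all tested genes rose to 0.29. The values of Nfe2l2 and Keap1 on that scale, 0.56 and 0.46, are to be read beside that shift. In the authors' FPKM, which carry the same scale, 7 of the 10 genes had groups that did not overlap with the NcstnΔKC group higher, beside 31.1% of all tested genes, and 0 had them lower, beside 12.3%. With log2(FPKM + 1) 8 were higher and 0 lower, beside 34.1% and 13.5% of all tested genes, and with log2(FPKM + 0.1) 8 and 0, beside 33.9% and 13.5%. With the replicate number as a block 3 were higher and 0 lower, beside 18.6% and 19.5%. Of the 4 genes called, 2 also had a log2 fold change of at least 1, Gsta4 and Slc7a11, and 0 were lower by as much, beside 10.2% and 14.7%. Relative to basal keratinocyte genes only Gsta4 was higher (2.36) and Nfe2l2 and Keap1 were lower, beside 4.58% of all genes higher and 49.3% lower and a median over all genes of -0.71. Under that scale the 4 genes called higher were at 2.36 (Gsta4), 1.69 (Slc7a11), 0.14 (Gclm) and -0.10 (Srxn1).

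In the 4 libraries with Xist alone, 5 of the 10 genes were higher and 1 lower, beside 26.3% and 25.4% of all genes. Slc7a11 was higher by 4.72, Gsta4 by 3.41, Srxn1 by 1.06, Gclm by 1.04 and Hmox1 by 0.80, and Gclc was lower (-0.45). In the 4 without Xist 0 of 10 passed, and 0.0191% of all genes were higher and 0.00638% lower. Their values were 2.68 for Gsta4, 1.19 for Slc7a11, 0.78 for Gclm, 0.30 for Srxn1 and -0.17 for Hmox1. Those 4 hold both libraries that stand apart, NcstnΔKC replicate 1 and normal replicate 2. The difference between the pairs of effects was tested as an interaction of group with Xist status, which 0 of the 10 passed (edgeR, 0 of all tested genes at the adjusted threshold, and 1 of the 10 at an unadjusted p under 0.05, beside 5.85% of all genes). That gene was Slc7a11, with a difference of 3.48 ± 1.34 on the log2 scale (edgeR adjusted p = 0.836).

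Levels were compared between genes per length, in FPKM. In normal skin Txnrd1 (25.6 ± 6.81) and Nfe2l2 (24.6 ± 3.23) were the most abundant, followed by Hmox1 (16.1 ± 3.57) and Gclc (14.1 ± 4.50), and each of these pairs differed by less than its SD. Gsta4 (5.12 ± 1.95), Srxn1 (3.99 ± 1.13), Keap1 (3.74 ± 0.492), Nqo1 (2.88 ± 0.819) and Gclm (2.64 ± 0.633) followed, each within the larger SD of the next except Keap1 and Nqo1, and Slc7a11 (0.365 ± 0.528) was last. In NcstnΔKC skin Gsta4 came first (54.7 ± 27.3), ahead of Txnrd1 (41.0 ± 6.75), Nfe2l2 (36.5 ± 5.45), Hmox1 (26.2 ± 11.1) and Gclc (13.4 ± 7.24). Srxn1 (7.76 ± 1.49), Gclm (6.31 ± 1.73), Nqo1 (6.15 ± 1.99) and Keap1 (5.19 ± 0.744) followed, and Slc7a11 was again last (2.67 ± 1.26, SD, n = 4 each). In that order only Hmox1 and Gclc, and Keap1 and Slc7a11, differed from the next by more than the larger SD. The first place of Gsta4 came from 3 libraries, since in NcstnΔKC replicate 1 it stood at 13.9 FPKM, below Txnrd1 at 50.9.

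Ratios of 2 genes within a library do not depend on how libraries are scaled. Gclm to Gclc was 0.119, 0.179, 0.237 and 0.257 in normal and 0.157, 0.803, 0.727 and 0.663 in NcstnΔKC skin. Replicate 1 lay among the normal values and the other 3 above them. The mean log2 difference of 1.39 did not pass (exact two-sided permutation test, p = 0.114, adjusted p = 0.171 over 3 ratios), and without NcstnΔKC replicate 1 it was 1.94, given with no test because that library was the only one that overlapped. Nfe2l2 to Keap1, the factor against its inhibitor, was 6.0 to 7.01 in normal and 5.62 to 9.13 in NcstnΔKC skin, a log2 difference of 0.09 (exact permutation p = 0.629, adjusted p = 0.629). Slc7a11 to Slc3a2, the heavy chain that carries xCT to the cell surface, was 0.00986, 0.141, 0.016 and 0.0191 in normal and 0.088, 0.0765, 0.125 and 0.21 in NcstnΔKC skin. Normal replicate 2 lay among the NcstnΔKC values. The log2 difference was 2.18 (exact permutation p = 0.114, adjusted p = 0.171), and 3.0 without normal replicate 2, given with no test for the same reason.

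**Figure D4:**
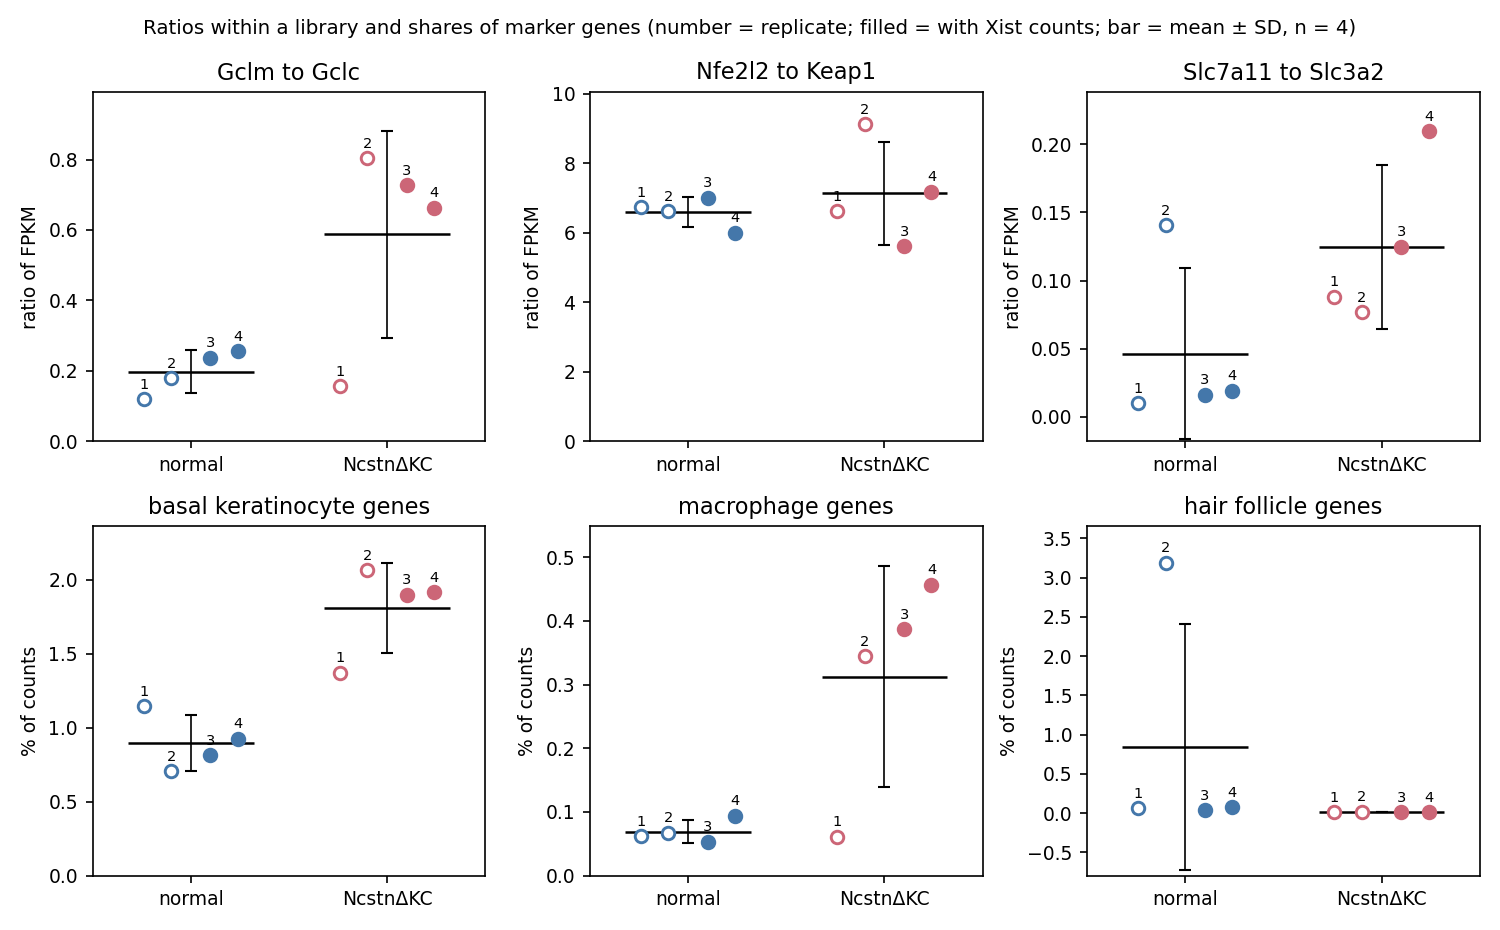
Top, ratio of the FPKM of 2 genes in each library; bottom, percent of counts taken by 3 marker lists, for 4 normal (blue) and 4 NcstnΔKC (red) libraries numbered by replicate, with filled points for libraries with Xist counts and black bars for the mean ± SD (axes from 0, or below it where an SD bar reaches there). NcstnΔKC replicate 1 sits near the normal libraries in the Gclm to Gclc ratio and in macrophage genes, and normal replicate 2 stands alone in hair follicle genes.

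The wider pathway was described by 9 lists of 141 genes, of which 135 were tested. Of these 36 were higher and 37 lower, close to the 21.4% and 22.7% of all genes, with a median log2 fold change of -0.04. With total counts alone 47 were higher and 24 lower, beside 33.9% and 14.2% of all genes, and relative to basal keratinocyte genes 12 and 66, beside 4.58% and 49.3%. Among the genes named below, the rises of Maff, Rbx1, Dpp3, Slc3a2, Ggct, Gsr, Oplah, Gsto1, Mgst2, Txnrd3, Prdx6, Nadk, Pgls, Tfrc, Flvcr1, Ftl1, Akr1a1, Cyba, Ncf1 and Atf4 did not pass relative to basal keratinocyte genes. The falls of Bach2, Nfe2l1, Btrc, Crebbp, Txn2, Blvrb and Cat did not pass with total counts alone.

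Among genes of 14 proteins that control Nrf2, 4 rose and 4 fell (median 0.17), beside 21.4% and 22.7% of all tested genes. With total counts alone 7 were higher and 0 lower (median 0.48), beside 33.9% and 14.2%. Relative to basal keratinocyte genes 1 was higher and 7 lower (median -0.50), beside 4.58% and 49.3%. Bach1, a repressor that competes with Nrf2 for its elements, rose from 73.2 ± 13.1 to 188 ± 26.9 CPM (SD, n = 4 each), by 1.36 ± 0.16 in log2 units (adjusted p = 3.97e-04). It passed under each of 6 scalings. Among these were basal keratinocyte genes, total counts and log2(FPKM + 1), of which the last carries the scale of total counts. Maff, a small Maf partner, rose by 1.43 ± 0.49, and by 0.70 without NcstnΔKC replicate 1. In the libraries with Xist it was at 0.64 (adjusted p = 0.191). Rbx1, a subunit of the ligase that receives Nrf2 from Keap1, rose by 0.79 ± 0.16, and Dpp3, a peptidase that can bind Keap1 (named 4930533O14Rik in the table), by 0.67 ± 0.17. Relative to basal keratinocyte genes Maff was at 0.82 (adjusted p = 0.223), Rbx1 at 0.10 (adjusted p = 0.718) and Dpp3 at -0.01. Nfe2l1, the related factor Nrf1, fell (-0.73 ± 0.19), as did Bach2 (-1.33 ± 0.45), Btrc (-0.59 ± 0.14) and Crebbp (-0.50 ± 0.16), which encode a repressor, a ligase adaptor and a coactivator. With total counts alone these 4 had adjusted p = 0.0817, 0.0597, 0.164 and 0.281.

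Of 16 tested genes of glutathione synthesis, recycling and export 5 rose and 1 fell (median -0.03), beside 21.4% and 22.7% of all tested genes. Glrx, glutaredoxin, rose from 10.9 ± 1.80 to 89.5 ± 19.4 CPM (SD, n = 4 each), by 3.03 ± 0.20 (adjusted p = 6.49e-05), beside 3.07 ± 0.47 for Gsta4. Unlike in Gsta4, NcstnΔKC replicate 1 was its highest library (116 against 71.6 to 92.2 CPM). Slc3a2 (1.22 ± 0.17), Ggct (1.09 ± 0.18), which releases 5-oxoproline from γ-glutamyl peptides, Gsr (0.97 ± 0.23), glutathione reductase, and Oplah (0.83 ± 0.19), 5-oxoprolinase, also rose. Relative to basal keratinocyte genes these 4 stayed positive without passing. Gpx3, the secreted glutathione peroxidase, fell from 563 ± 254 to 164 ± 41.9 CPM (-1.78 ± 0.32).

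Glutathione transferases other than Gsta4 went mostly the other way. Of 22, 19 were tested, 11 fell and 2 rose, beside 22.7% and 21.4% of all tested genes. With total counts alone 8 fell, beside 14.2%, and relative to basal keratinocyte genes 15 fell, beside 49.3%. The median was -0.97 and lay between -1.71 and -0.41 over 6 scalings. The value of -0.41 was with log2(FPKM + 1), and the median was -0.66 with total counts alone and -0.60 with log2(FPKM + 0.1). Gstm1 fell from 99.4 ± 10.4 to 25.7 ± 6.07 CPM (SD, n = 4 each, -1.95 ± 0.18, adjusted p = 1.53e-04), Gstm5 had -1.44 ± 0.16 and Gstk1, of mitochondria and peroxisomes, -1.91 ± 0.25. Gsta2, of the same alpha class as Gsta4, fell from 6.18 ± 1.16 to 1.34 ± 1.05 CPM (-2.22 ± 0.48), and was picked out after its values were seen. Gsto1 (0.99 ± 0.17) and Mgst2 (1.12 ± 0.25) rose. Hair follicle genes took 0.0137% to 0.0184% of counts in NcstnΔKC and 0.0341% to 3.19% in normal libraries, without overlap. Of the 10 hair follicle genes 7 were tested and 7 were lower, beside 22.7% of all tested genes. Any of them nearly absent from NcstnΔKC libraries could pass the filter on low counts only through the normal group. Krt25 was at 0 in every NcstnΔKC library. Sebocyte genes took 0.0243% to 0.175% against 0.199% to 0.592%, also without overlap. Skeletal muscle genes (0.113% to 0.805% against 0.751% to 5.83%) and adipocyte genes (0.0052% to 0.0303% against 0.0297% to 0.0908%) overlapped between groups. The part of these cells in the falls was not tested.

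**Figure D5:**
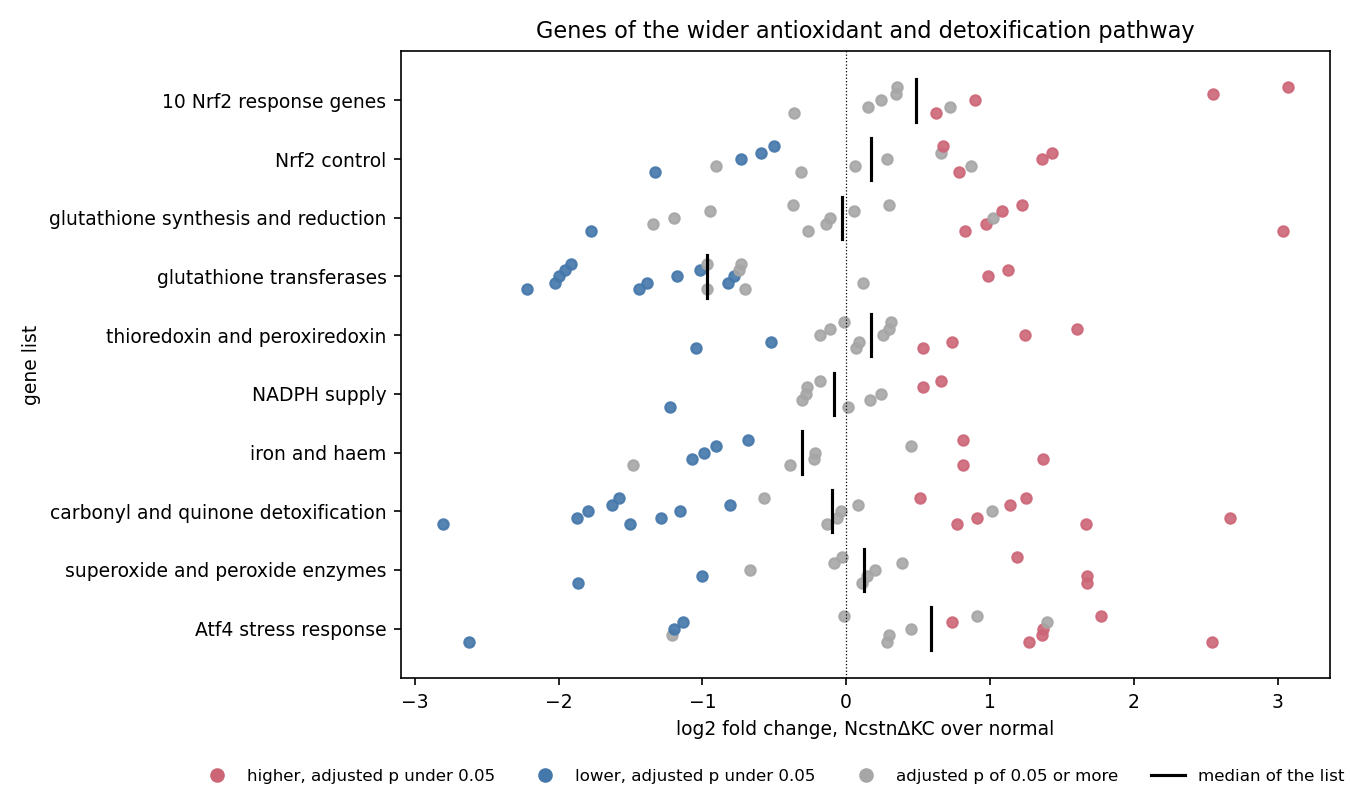
Log2 fold change of NcstnΔKC over normal (horizontal axis) of each tested gene in 10 lists (rows), coloured by whether it was higher (red), lower (blue) or did not pass (grey), with a black bar at the median of the list. Glutathione transferases lie mostly left of 0 (median -0.97), whereas the 10 Nrf2 response genes have a median of 0.49.

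Of 14 thioredoxin and peroxiredoxin genes, 4 rose and 2 fell, beside 21.4% and 22.7% of all tested genes. The median of the 14 was 0.17, and -0.52 relative to basal keratinocyte genes. Prdx1, a cytosolic peroxiredoxin and a substrate of sulfiredoxin, rose from 78.3 ± 3.86 to 185 ± 12.4 CPM (SD, n = 4 each, 1.24 ± 0.11, adjusted p = 1.15e-04). Txn1, thioredoxin, rose from 27.1 ± 4.98 to 82.3 ± 15.9 CPM (1.61 ± 0.19, adjusted p = 4.2e-04). Both passed under each of 6 scalings. Txnrd3 (0.74 ± 0.17) and Prdx6 (0.54 ± 0.15) rose, although Prdx6 was at -0.13 relative to basal keratinocyte genes, and mitochondrial Txn2 (-0.52 ± 0.14) and Sesn3 (-1.04 ± 0.25) fell.

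NADPH feeds both arms, and of 10 genes of its supply 2 rose and 1 fell, beside 21.4% and 22.7% of all tested genes. Nadk, which makes NADP, rose by 0.66 ± 0.16 and Pgls, of the pentose phosphate pathway, by 0.54 ± 0.19 (adjusted p = 0.0499), but relative to basal keratinocyte genes these were -0.03 and -0.15. Without NcstnΔKC replicate 1 Pgls missed the threshold (adjusted p = 0.0544). Me1, malic enzyme, fell (-1.23 ± 0.24). Of 12 tested genes of iron and haem, 3 rose and 4 fell, beside the same 21.4% and 22.7%. Tfrc, the transferrin receptor, rose by 1.37 ± 0.24, Flvcr1, a haem exporter (named Mfsd7b in the table), by 0.82 ± 0.21 and ferritin light chain Ftl1 by 0.81 ± 0.24. Relative to basal keratinocyte genes these were 0.62, 0.11 and 0.09 (adjusted p = 0.0931, 0.752 and 0.784). Ferritin heavy chain Fth1 (-0.99 ± 0.16), the biliverdin reductase Blvrb (-0.90 ± 0.20), the haem transporter Slc48a1 (-1.07 ± 0.12) and ferrochelatase Fech (-0.69 ± 0.16) fell, Blvrb with adjusted p = 0.0744 under total counts alone.

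Enzymes that detoxify quinones and carbonyls were split, with 7 of 22 higher and 9 lower, beside 21.4% and 22.7% of all tested genes. Akr1b8, an aldo-keto reductase, rose from 5.24 ± 1.58 to 33.6 ± 13.9 CPM (SD, n = 4 each, 2.67 ± 0.39), and like Gsta4 it was lowest in NcstnΔKC replicate 1 (13.7 CPM against 34.5 to 43.8). The carbonyl reductase Cbr3 rose (1.67 ± 0.18) while its neighbour in sequence, Cbr1, fell (-1.16 ± 0.15). Aldh2, the mitochondrial aldehyde dehydrogenase (-1.87 ± 0.13), and Ephx1, microsomal epoxide hydrolase (-1.58 ± 0.27), fell, and Akr1a1 rose (0.77 ± 0.13). Of 12 tested enzymes that make or remove superoxide and peroxide, 3 rose and 2 fell, beside the same 21.4% and 22.7%. The oxidase Nox4 rose by 1.68 ± 0.32, and Ncf1 (1.68 ± 0.47) and Cyba (1.19 ± 0.41), parts of the phagocyte oxidase, also rose. The part in these of the macrophage and neutrophil shares given above was not tested. Superoxide dismutase Sod1 fell from 49.3 ± 3.75 to 13.6 ± 4.46 CPM (-1.86 ± 0.23, adjusted p = 4.62e-04), and catalase, Cat, had -1.0 ± 0.33.

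Slc7a11 is also a target of Atf4, a factor of the amino acid stress response. Of 16 genes of that response 6 rose and 3 fell, beside 21.4% and 22.7% of all tested genes. The median of the 16 was 0.59, and -0.11 relative to basal keratinocyte genes. Asns, asparagine synthetase, rose from 11.8 ± 2.05 to 40.0 ± 6.77 CPM (SD, n = 4 each, 1.77 ± 0.19, adjusted p = 2.63e-04), and the serine pathway enzymes Phgdh and Shmt2 by 1.37 ± 0.18 and 1.27 ± 0.14, all 3 of which passed under 6 scalings. Atf4 itself rose by 0.74 ± 0.24 and the amino acid transporter Slc7a5 by 2.54 ± 0.41, both picked out after their values were seen. Atf4 was at 0.45 without NcstnΔKC replicate 1 and at 0.07 (adjusted p = 0.869) relative to basal keratinocyte genes. Nupr1 (-2.62 ± 0.19), Ddit3 (-1.14 ± 0.24), which encodes the stress factor CHOP, and Cbs (-1.19 ± 0.32), which starts the route from homocysteine to cysteine, fell.

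With the group means removed, Gclm varied across the 8 libraries most like Nqo1 (Pearson's r = 0.85) and Hmox1 (0.83) among the 10 genes, and Gclc like Txnrd1 (0.78), while Gclc and Gsta4 ran opposite (-0.88). Over 12445 genes with a mean of at least 5 CPM, Gsta4 was most like Ttc21b, Irf3 and Dnajc16 (r = 0.993, 0.991 and 0.991), Slc7a11 like Trps1, Heyl and Marcksl1 (0.995, 0.995 and 0.982), Gclm like Itgb6, Vps52 and Pus7l (0.984, 0.976 and 0.975) and Srxn1 like 2810417H13Rik, Hist2h3b and Mcm10 (0.983, 0.977 and 0.977). These values describe 8 libraries that share depth and composition. NcstnΔKC replicate 1 lies far from its group in Gsta4 and Gclc, as does normal replicate 2 in Slc7a11.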

How the data were processed

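The authors deposited raw read counts and FPKM (length- and depth-scaled fragments) for 34745 genes in 8 libraries. The submitters' processing notes name TopHat2 2.0.9 and HTSeq and the builds mm10 and hg38, without roles; settings, strand handling and annotation are not given in the sources used here. FPKM times total count over count was constant within 0.00177% for 9175 genes, so the deposited FPKM carry total-count scaling. Counts were filtered (filterByExpr, 15684 genes kept), scaled by TMM and tested with edgeR 4.0.16 (robust quasi-likelihood, Benjamini-Hochberg) in R 4.3.3, with no covariate. limma 3.58.1 and DESeq2 1.42.0 served alternatives. The fit was tested on simulated data. Ratios and marker shares were compared by exact two-sided permutation tests. CPM are scaled by TMM. For values relative to basal keratinocyte genes, libraries were scaled by the summed counts of the 13 genes of that list, so genes with many counts, such as Krt5, weigh most. FPKM were tested as log2(FPKM + 1) and log2(FPKM + 0.1). Samples were grouped by their labels.

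The genes and lists were chosen with earlier results of these data known. Named by rule were the 10 genes, Ncstn, the 3 genes of lowest p in each direction of each list, and all genes behind a count of 5 or fewer. Outside that rule, Gsta2, Atf4 and Slc7a5 were picked after their values were seen. Krt5 and the other single marker genes, and the genes of highest correlation, were also named outside it. Of the marker lists, differentiated keratinocyte genes (0.913% and 0.623% of counts on average in normal and NcstnΔKC), endothelial genes (0.0213% and 0.0222%) and fibroblast genes (1.29% and 0.649%) are given here only. Marker symbols that matched more than 1 row were left out.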

Additional observations from a re-analysis of the deposited data

Results flagged for a closer look

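In 50 groups of 4 libraries, 7 had a library whose gap to the nearest of the others was too large a part of the group's range by Dixon's test, and chance gives about 1 in 20 groups. NcstnΔKC replicate 1 stood apart in 3 of the genes, high in Gclc (82.8 CPM) and Txnrd1 (173 CPM) and low in Gsta4 (13.3 CPM). Normal replicate 2 stood apart high in Slc7a11 (21.4 CPM), in the ratio of Slc7a11 to Slc3a2 (0.141), in hair follicle genes (3.19% of counts) and in melanocyte genes (0.0133% of counts).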

How the results depend on the processing

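Of the 10 genes, 4 were higher in the reported fit, 2 with a log2 fold change of at least 1, 8 with total counts, 8 with log2(FPKM + 1) and 8 with log2(FPKM + 0.1), 1 relative to basal keratinocyte genes, 0 in the libraries without Xist, 7 without both NcstnΔKC replicate 1 and normal replicate 2, and 2 to 7 over the fits that left libraries out. None was lower in the reported fit, 2 were relative to basal keratinocyte genes, 1 in the libraries with Xist and 0 to 1 with libraries left out. Relative to basal keratinocyte genes the log2 fold change turned to -0.46 in Nfe2l2, -0.54 in Keap1, -0.023 in Nqo1, -0.43 in Hmox1, -0.36 in Txnrd1 and -0.10 in Srxn1, and Hmox1 was at -0.17 in the libraries without Xist. Pathway genes higher numbered 36, and 21 (log2 of at least 1), 12 (basal), 0 (without Xist) and 31 to 37 (libraries left out, both of those included), and lower 37, and 24 (total counts), 66 (basal), 0 (without Xist), 21 and 21 (FPKM) and 29 to 42. All genes higher numbered 3360, and 1597, 5323 (total counts), 718, 3, 5351 and 5315 (FPKM) and 2733 to 3935, and lower 3555, and 2306, 2224, 7734, 1, 2115 and 2122 and 2722 to 4124, in the same order. With libraries left out the log2 ratio difference ranged from 1.15 to 1.94 for Gclm to Gclc, 1.72 to 3.0 for Slc7a11 to Slc3a2 and -0.032 to 0.20 for Nfe2l2 to Keap1. The cause of these shifts was not tested. Same-numbered libraries did not pair (correlations -0.0181, -0.0315, -0.0129 and 0.218). With the replicate block 3 of the 10 genes were higher, Srxn1 being lost (0.65, adjusted p = 0.0558), and 2923 of all genes were higher and 3058 lower. Counts were low in normal libraries for Nqo1 (18 to 48), Gsta4 (19 to 52) and Slc7a11 (10 to 106).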
